A study of Homo sapiens with 30 samples.

Results

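The genes described here are 8 genes of the liver X receptor (LXR) pathway and of cholesterol traffic: the receptor genes NR1H2 (LXR beta) and NR1H3 (LXR alpha), the exporters ABCA1 and ABCG1, the LXR targets MYLIP and LPCAT3, the lipoprotein receptor SCARB1 and the lysosomal cholesterol carrier NPC1. They were chosen as a list of symbols, and all 8 were found among the 60675 genes of the deposited expected-count table. All 8 also passed the filter on low counts, which left 18783 genes. The libraries were made from HT29, an established line of human colon adenocarcinoma cells, after 24 h with vehicle or with a 70% ethanol extract of 1 of 4 Korean herbal formulas (Bojungikgi-tang, Sayeok-tang, Banhasasim-tang and Yijung-tang, called here by their first word). Each extract was given at 20, 100 and 500 µg/mL. There were 3 vehicle libraries, 3 libraries at each dose of Bojungikgi and of Sayeok, 2 at each dose of Banhasasim (replicates 2 and 3) and 1 at each dose of Yijung (replicate 3), 30 in all. The vehicle is given as 0.1% DMSO in the sample labels and as 2% DMSO in the text of the series, and the DMSO in the extract groups is not given in the sources used here.

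LXRs are nuclear receptors that pair with a retinoid X receptor and are activated by oxysterols, the oxidised products of cholesterol. Bound to DNA, the pair raises transcription of genes that remove cholesterol from the cell, among them ABCA1, which loads cholesterol onto lipid-poor apolipoprotein A-I, and ABCG1, which passes it to formed high-density lipoprotein. The same receptors induce MYLIP, a ubiquitin ligase that marks lipoprotein receptors for degradation, and LPCAT3, which puts polyunsaturated acyl chains into membrane phospholipids. In the gut wall, ABCA1 on the basolateral side of enterocytes is known as a source of high-density lipoprotein.

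Total expected counts per library ranged from 36.274 to 71.626 in units of 1e6, with a median of 50.054. The 7 colon epithelium markers, which do not tell HT29 from other colon lines, summed to 9453 to 12700 CPM (counts per 1e6, scaled by the TMM method). Most of it was KRT8 (4904 to 7438 CPM) and KRT18 (2860 to 3781 CPM), and CDX2 was the lowest at 4.75 to 7.52 CPM. The 5 macrophage markers summed to 4.51 to 6.59 CPM, most of it CD14 (2.69 to 4.99 CPM) and ITGAM (1.28 to 2.35 CPM). CSF1R was at most 0.138 CPM, and CD163 and MARCO were at 0 in every library. The fibroblast, endothelium and leukocyte markers summed to at most 2.87, 2.25 and 0.344 CPM. The 3 hepatocyte markers (ALB, TTR and SERPINA1) summed to 282.6 to 404.4 CPM, nearly all of it SERPINA1 (282.3 to 403.6 CPM), with ALB at a median of 0 and TTR at most 0.836 CPM. Vehicle replicate 1 and Bojungikgi 500 µg/mL replicate 2 stood apart at opposite ends of the first principal component, with 6.38% (highest) and 3.53% (lowest) of counts in ribosomal protein genes. Both Banhasasim 500 µg/mL libraries had far more counts in the 2 mitochondrial ribosomal RNA genes (12.9% and 9.41%) than any other library (0.914% to 1.91%). Where leaving out 1 of these 4 libraries ended the call of a gene named below, this is said beside the call. The labels do not state that replicate libraries came from separate cultures. The p-values therefore measure only the spread between libraries, which may be technical.

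On GRCh38 (GENCODE release 29), the exporter genes lie at chr9:104781002-104928237 on the minus strand (ABCA1, ENSG00000165029) and chr21:42199689-42297244 on the plus strand (ABCG1, ENSG00000160179). MYLIP (ENSG00000007944) spans chr6:16129125-16148248, LPCAT3 (ENSG00000111684) chr12:6976186-7018510, NR1H2 (ENSG00000131408) chr19:50329653-50382982, NR1H3 (ENSG00000025434) chr11:47248300-47269032, SCARB1 (ENSG00000073060) chr12:124776856-124882668 and NPC1 (ENSG00000141458) chr18:23506184-23586898. All are protein-coding, and the values are sums over a whole gene. Some of the 8 overlap a gene on the opposite strand that was also expressed, among them LPCAT3, NR1H3 and NPC1 (EMG1, ACP2 and RMC1, with median levels of 49.0, 32.97 and 15.2 CPM). The library kit keeps strand, but the strand setting of the counting is not given in the sources used here. Reads of these pairs may thus not be told apart. ABCA1 overlaps only an antisense gene with a median of 0 CPM.

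RefSeq promoter windows (GRCh38.p14, 250 bases before to 50 after a start) matched 6 of the 8 genes, all but ABCG1 and SCARB1. The ABCA1 window is shown because the change of ABCA1 with Banhasasim was opposite in sign to that of ABCG1, and because its window was the only one of the 6 genes with a match to the LXR element known as DR4, a direct repeat of AGGTCA with 4 bases between (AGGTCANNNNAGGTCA, both strands searched). It covers chr9:104928106-104928405 on the minus strand, and the capitals mark the match.

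ABCA1: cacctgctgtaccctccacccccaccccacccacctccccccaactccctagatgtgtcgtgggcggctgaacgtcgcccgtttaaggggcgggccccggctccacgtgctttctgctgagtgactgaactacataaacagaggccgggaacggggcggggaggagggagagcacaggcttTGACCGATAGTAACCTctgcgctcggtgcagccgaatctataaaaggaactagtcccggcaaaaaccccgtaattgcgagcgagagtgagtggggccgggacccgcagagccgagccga

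The match begins at base -69 relative to the start, reads on the strand opposite to the one printed and differs from the motif at 2 of its 12 fixed letters. A match with at most 2 letters off was found in 2.34% of the 35116 RefSeq promoter windows. No other window of the matched genes held DR4 even with 3 letters off, a looser match that 18.65% of all windows have. The ABCA1 window also holds the E-box CACGTG at -147 (7.26% of windows), and 1 of the 4 NR1H3 windows holds a single AGGTCA at -140 (13.83% of windows). These are matches of letters in a window of 300 bases and show no binding.

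Compared per length, which allows levels of different genes to be set side by side, the exporters were the least abundant of the 8. Median levels over the 30 libraries were 0.560 CPM per kb for ABCA1 and 0.832 CPM per kb for ABCG1. NPC1 (5.59), MYLIP (5.69), NR1H2 (7.29), NR1H3 (10.6), SCARB1 (14.0) and LPCAT3 (18.2 CPM per kb) were all higher. The LXR alpha transcript therefore stood above that of LXR beta at the median, and in every library the ratio of NR1H3 to NR1H2 per length lay between 1.28 and 1.95. Behind these levels were 166 to 426 counts per library for ABCA1 and 173 to 501 for ABCG1, so both rest on fewer counts than the other 6 genes, which had at least 639 in every library. ABCG1 varied most, with its highest library 2.68 times its lowest, followed by ABCA1 (1.76 times) and NR1H3 (1.61 times). SCARB1 and NPC1 varied least (1.20 times each).

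**Figure D1:**
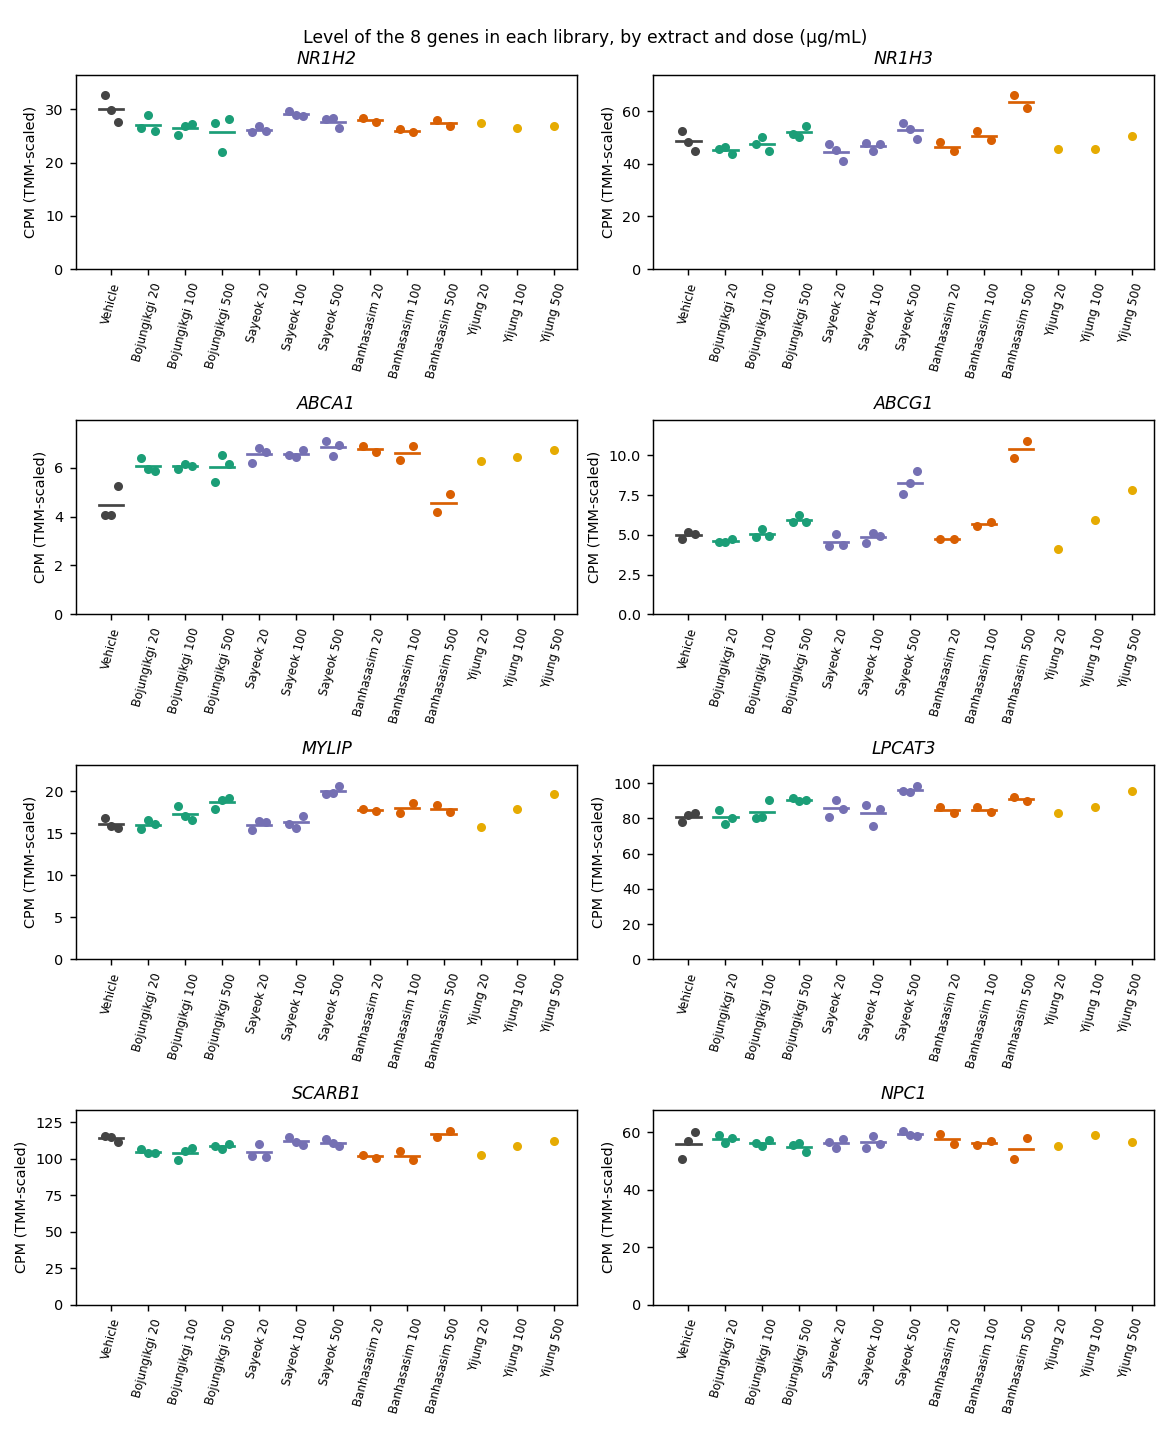
Level of each of the 8 genes in TMM-scaled CPM (vertical axis, from 0, a scale of its own per gene) in each library (points), by extract and dose in µg/mL (horizontal axis); bars are group means, drawn where a group has more than 1 library. ABCA1 is low in the vehicle and Banhasasim 500 µg/mL libraries, and ABCG1 is highest in the Banhasasim 500 µg/mL libraries (9.84 and 10.9 CPM).

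The first question was how the 8 genes changed with dose inside each extract. No vehicle library enters these contrasts, but all 30 libraries share the filter, the scaling and the estimate of spread. From 20 to 500 µg/mL, ABCG1 rose in Bojungikgi, Sayeok and Banhasasim, NR1H3 rose in Sayeok and Banhasasim, MYLIP rose in Bojungikgi and Sayeok, and ABCA1 fell in Banhasasim. With Bojungikgi 2 of the 8 genes were called, both higher (adjusted p under 0.05), where 1.76% of all genes tested were called, 0.602% higher and 1.16% lower. With Sayeok 3 were called, all higher, where 3.18% of all genes were called (1.14% higher, 2.03% lower). With Banhasasim 4 were called, 3 higher and 1 lower, where 7.82% of all genes were called (3.82% higher, 4% lower). The median log2 change of the 8 genes was 0.109, 0.128 and 0.060 in these extracts, and that of all genes lay between 0.001 and 0.005. As these are bulk samples, a change in RNA per cell and a change in the share of cells in some state cannot be told apart.

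NR1H3, the LXR alpha gene, measured 48.3 and 44.9 CPM with Banhasasim at 20 µg/mL, 52.6 and 48.9 CPM in the 100 µg/mL libraries and, at the highest dose, 66.0 and 61.3 CPM. The 500 µg/mL libraries were the highest of all 30 and did not overlap those at 20 µg/mL. The log2 change was 0.45 ± 0.076 (SE; 1.37-fold, adjusted p = 0.000239), and without 500 µg/mL replicate 2 it was 0.398 (adjusted p = 0.0104). With Sayeok the 3 libraries were at 47.5, 45.4 and 41.1 CPM at the low dose and 55.5, 53.4 and 49.6 CPM at the high dose, again without overlap (log2 change 0.24 ± 0.063, adjusted p = 0.0302). This call was lost without Sayeok 500 µg/mL replicate 1 or 2 or Sayeok 20 µg/mL replicate 2 or 3, with adjusted p between 0.0664 and 0.178. With Bojungikgi the change of 0.20 ± 0.062 missed the threshold (adjusted p = 0.107). NR1H2, the LXR beta gene, gave changes of -0.068, 0.080 and -0.028 with dose in Bojungikgi, Sayeok and Banhasasim, and the 95% intervals of all 3 included 0 and lay between -0.210 and 0.224. Whether LXR alpha and LXR beta differ in these changes was not tested.

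ABCG1, the exporter to high-density lipoprotein, measured 4.72 and 4.74 CPM with Banhasasim at 20 µg/mL, 5.56 and 5.84 CPM in the 100 µg/mL libraries and, at the highest dose, 9.84 and 10.9 CPM. The 500 µg/mL libraries stood above every other library of the series, and the 3 doses did not overlap. The log2 change from 20 to 500 µg/mL was 1.13 ± 0.097 (2.19-fold, adjusted p = 5.02e-09), and without 500 µg/mL replicate 2 it was 1.208 (adjusted p = 6.29e-08). With Sayeok, ABCG1 was at 4.27, 5.04 and 4.36 CPM at the low dose and 7.54, 8.26 and 9.0 CPM at the high dose. All 3 libraries at the high dose exceeded all 3 at the low dose, and the change was 0.85 ± 0.081 (1.81-fold, adjusted p = 2.52e-07). With Bojungikgi the libraries moved from 4.57, 4.52 and 4.71 CPM to 5.79, 6.25 and 5.78 CPM, a smaller step that also left no overlap (0.37 ± 0.081, 1.29-fold, adjusted p = 0.0128). Leaving out Bojungikgi 500 µg/mL replicate 2 or 20 µg/mL replicate 2 ended that last call (adjusted p = 0.0713 and 0.0891), as did a fit on only the groups compared (adjusted p = 0.109). No library left out ended the Sayeok or Banhasasim call.

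ABCA1, the exporter to apolipoprotein A-I, changed in the opposite direction to ABCG1 with Banhasasim. It measured 6.87 and 6.63 CPM at the lowest dose, 6.31 and 6.89 CPM at the middle dose, but 4.18 and 4.91 CPM at 500 µg/mL. Both high-dose libraries lay below every other extract library of the series. The log2 change from 20 to 500 µg/mL was -0.57 ± 0.111 (0.674-fold, adjusted p = 0.0012), and without Banhasasim 500 µg/mL replicate 2, the library with the largest mitochondrial ribosomal RNA share, it was -0.457 (adjusted p = 0.062). The part of that share in the result was not tested. No change of ABCA1 with dose was called in the other extracts, where it was -0.009 (95% interval -0.190 to 0.171) in Bojungikgi and 0.060 (-0.121 to 0.242) in Sayeok.

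The 2 exporters were set against each other per length in each library. The ratio of ABCG1 to ABCA1 was 4.13 and 4.36 in the Banhasasim 500 µg/mL libraries and between 1.21 and 2.41 in all others. It lay between 1.79 and 2.38 in the vehicle libraries and between 1.21 and 1.48 in all libraries at 20 µg/mL. In the plot of both genes by library, the pair of Banhasasim 500 µg/mL points stands alone at low ABCA1 and high ABCG1.

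**Figure D2:**
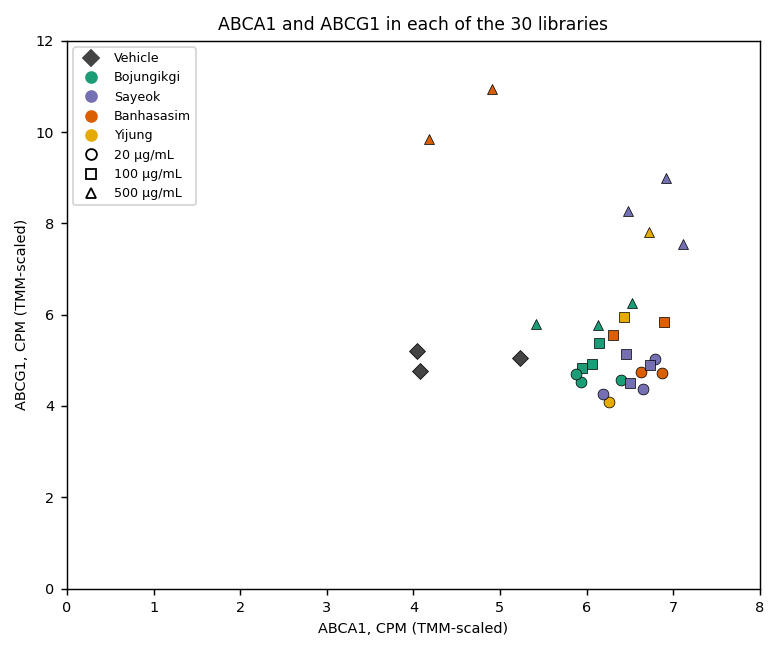
ABCA1 (horizontal axis) against ABCG1 (vertical axis), both in TMM-scaled CPM, in each of the 30 libraries; colours are extracts and shapes are doses. The 2 Banhasasim 500 µg/mL libraries lie at 4.18 and 4.91 CPM of ABCA1 and 9.84 and 10.9 CPM of ABCG1, and the vehicle libraries lie at 4.05 to 5.24 CPM of ABCA1 and 4.77 to 5.20 CPM of ABCG1.

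MYLIP, the ligase acting on lipoprotein receptors, measured 15.3, 16.4 and 16.4 CPM with Sayeok at the low dose and 19.6, 19.8 and 20.6 CPM at the high dose. The groups did not overlap, and the log2 change was 0.32 ± 0.054 (1.25-fold, adjusted p = 0.000618), which no library left out ended. With Bojungikgi the values were 15.4, 16.5 and 16.1 CPM and 17.9, 19.0 and 19.1 CPM, again apart (0.22 ± 0.053, adjusted p = 0.0289). That call was lost without Bojungikgi 20 µg/mL replicate 1, 2 or 3 or 500 µg/mL replicate 2 or 3, with adjusted p between 0.0652 and 0.132, while the change stayed between 0.189 and 0.238. It was also lost with no filter on low counts (adjusted p = 0.195) and in a fit on only the groups compared (adjusted p = 0.228). In Banhasasim, MYLIP was at 17.8 and 17.6 CPM at the low dose and at 18.4 and 17.5 CPM at the high dose, and the change of 0.016 had a 95% interval of -0.120 to 0.151.

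LPCAT3, the acyltransferase, was higher in every 500 µg/mL library than in every 20 µg/mL library of the same extract for Bojungikgi (89.9 to 91.7 against 77.1 to 85.1 CPM), Sayeok (94.8 to 98.6 against 81.0 to 90.7 CPM) and Banhasasim (89.7 and 92.4 against 83.2 and 86.3 CPM). Its log2 changes of 0.17 ± 0.054, 0.17 ± 0.054 and 0.10 ± 0.066 missed the threshold, with adjusted p of 0.127, 0.104 and 0.4. SCARB1, a scavenger receptor that takes up cholesteryl ester from high-density lipoprotein, was at 103 and 100 CPM with the low dose of Banhasasim and at 115 and 119 CPM with the high dose (0.20 ± 0.051, adjusted p = 0.0108). It was still called without 500 µg/mL replicate 2 (0.231, adjusted p = 0.0363). Without Banhasasim 20 µg/mL replicate 2 or 3 or 500 µg/mL replicate 3 this was no longer called (adjusted p = 0.0526 to 0.121), nor was it with no filter on low counts (adjusted p = 0.127) or in a fit on only the groups compared (adjusted p = 0.0775). Its changes in Bojungikgi (0.051) and Sayeok (0.089) were not called. NPC1, which carries cholesterol out of the lysosome, changed by -0.073, 0.080 and -0.088 with dose and was called in none of the 12 comparisons of 2 groups. Its 95% intervals in these 3 comparisons lay between -0.225 and 0.191.

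**Figure D3:**
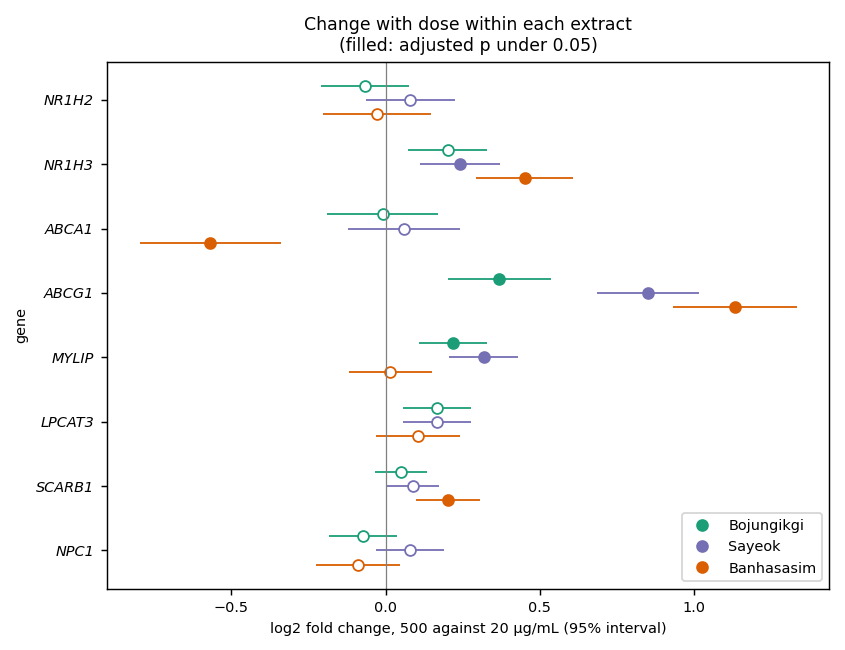
Log2 fold change of each of the 8 genes from 20 to 500 µg/mL (horizontal axis) with its 95% interval (line), for Bojungikgi, Sayeok and Banhasasim (colours); filled points had an adjusted p under 0.05. ABCG1 lies to the right of 0 in all 3 extracts (0.37, 0.85 and 1.13), whereas ABCA1 has intervals that include 0 in Bojungikgi and Sayeok and lies at -0.57 in Banhasasim.

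From 20 to 100 µg/mL none of the 8 genes was called in any of the 3 extracts by edgeR or by DESeq2. Of all genes tested, 0.0106% were called with Bojungikgi, 0% with Sayeok (0 genes by either tool, 887 at an unadjusted p under 0.05) and 0.0852% with Banhasasim. At an unadjusted p under 0.05 the counts among the 8 were 0 with Bojungikgi, 2 with Sayeok (NR1H2 and SCARB1) and 1 with Banhasasim (ABCG1). The Banhasasim value of ABCG1 was 0.27 ± 0.101, with 2 libraries at 100 µg/mL above both at 20 µg/mL.

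Whether the change from 20 to 500 µg/mL differed between extracts was tested by interaction terms over the same fit. Between Banhasasim and Bojungikgi 2 of the 8 genes differed, where 2.06% of all genes did. The change of ABCG1 was larger in Banhasasim by 0.76 ± 0.126 (adjusted p = 0.00063), and that of ABCA1 lower by 0.56 (-0.56 ± 0.142, adjusted p = 0.0339). Between Banhasasim and Sayeok only ABCA1 was called (-0.63 ± 0.142, adjusted p = 0.0213), where 1.04% of all genes were, and ABCG1 differed by 0.28 with a 95% interval of 0.021 to 0.542 (adjusted p = 0.472). Between Sayeok and Bojungikgi none of the 8 was called by edgeR, where 0.0266% of all genes were. The ABCG1 difference there was 0.48 (95% interval 0.247 to 0.719, adjusted p = 0.335), and that of ABCA1 was 0.069 (-0.186 to 0.325). Both ABCA1 differences were lost without Banhasasim 500 µg/mL replicate 2 (adjusted p = 0.291 and 0.241) and without Banhasasim 20 µg/mL replicate 2 or 3. The difference from Bojungikgi was also lost in a fit on only the groups compared (adjusted p = 0.115) and without Bojungikgi 500 or 20 µg/mL replicate 2 or 3, and that from Sayeok without Sayeok 500 µg/mL replicate 1 or 3 or 20 µg/mL replicate 1. Over all libraries left out in turn, the first stayed between -0.679 and -0.441 and the second between -0.749 and -0.514. The ABCG1 difference between Banhasasim and Bojungikgi was called with every library left out.

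The second question was how the treated cells compared with vehicle. These comparisons all share the 3 vehicle libraries, so their values are given side by side and are not independent of each other. The vehicle samples also carry a sample code series of their own, so code series and vehicle cannot be told apart. Banhasasim and Yijung share a code series, and Bojungikgi and Sayeok share another. Extract and code series thus cannot be told apart between these pairs. Against vehicle, ABCA1 was higher with every extract and dose tested except Banhasasim at 500 µg/mL, ABCG1 was higher with all 3 at 500 µg/mL and called with none at 20 µg/mL, and SCARB1 was lower at 20 µg/mL.

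ABCA1 measured 4.08, 4.05 and 5.24 CPM in the vehicle libraries. All 25 extract libraries other than those of Banhasasim at 500 µg/mL were above the highest of these, from 5.42 CPM upward. At 20 µg/mL the log2 difference from vehicle was 0.45 ± 0.090 with Bojungikgi (adjusted p = 0.00239), 0.56 ± 0.090 with Sayeok (adjusted p = 0.000355) and 0.60 ± 0.099 with Banhasasim (adjusted p = 0.000726). At 500 µg/mL it was 0.44 ± 0.091 with Bojungikgi (adjusted p = 0.0011) and 0.62 ± 0.090 with Sayeok (adjusted p = 6.1e-05), whereas with Banhasasim it was 0.031 (95% interval -0.185 to 0.247). No library left out ended any of the 5 calls, vehicle replicate 1 included, without which the differences were 0.397, 0.513 and 0.551 at 20 µg/mL and 0.382 and 0.567 at 500 µg/mL. A fit on only the groups compared did end the call for Banhasasim at 20 µg/mL (adjusted p = 0.0932) and for Bojungikgi at 500 µg/mL (adjusted p = 0.081). By mean level the vehicle (4.45 ± 0.677 CPM, SD, n = 3) and Banhasasim 500 µg/mL (4.55 ± 0.514 CPM, n = 2) were the lowest groups and overlapped, and the next, Bojungikgi 500 µg/mL (6.03 CPM), overlapped neither.

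ABCG1 measured 4.77, 5.20 and 5.06 CPM in the vehicle libraries. All libraries at 20 µg/mL lay below the lowest of these except Sayeok replicate 2 (5.04 CPM), Yijung included. The differences at 20 µg/mL were small, at -0.13, -0.14 and -0.086 for Bojungikgi, Sayeok and Banhasasim, and none was called. At 500 µg/mL ABCG1 was higher by 0.24 ± 0.081 with Bojungikgi (adjusted p = 0.0263), 0.72 ± 0.080 with Sayeok (adjusted p = 1.48e-06) and 1.05 ± 0.086 with Banhasasim (2.07-fold, adjusted p = 1.45e-09). The Bojungikgi value was not called without vehicle replicate 1 (0.204, adjusted p = 0.127) or without Bojungikgi 500 µg/mL replicate 2 (0.21, adjusted p = 0.112).

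At 500 µg/mL against vehicle, 5 of the 8 genes were called with Bojungikgi, 4 higher and 1 lower, where 29.7% of all genes were called (14.3% higher, 15.4% lower). With Sayeok 4 were called, all higher, where 16.6% of all genes were (8.33% higher, 8.27% lower). With Banhasasim 2 were called, both higher, where 15.3% were (8.16% higher, 7.12% lower). A call was thus common among all genes in these comparisons. MYLIP was higher with Bojungikgi (0.21 ± 0.054, adjusted p = 0.00433) and with Sayeok (0.31 ± 0.054, adjusted p = 0.000324). LPCAT3 was higher with Sayeok (0.25 ± 0.054, adjusted p = 0.00305) and with Bojungikgi (0.16 ± 0.054, adjusted p = 0.026), the latter not without vehicle replicate 1 (adjusted p = 0.137) or Bojungikgi 500 µg/mL replicate 1 (adjusted p = 0.064). NR1H3 was higher with Banhasasim (0.39 ± 0.069, adjusted p = 0.000259), and its differences of 0.099 with Bojungikgi and 0.12 with Sayeok were not called. NR1H2 was lower with Bojungikgi (-0.21 ± 0.069, adjusted p = 0.0224), although its libraries at 27.4, 21.99 and 28.1 CPM overlapped those of the vehicle at 32.6, 29.9 and 27.6 CPM. The highest and lowest of these values belong to the 2 libraries that stood apart, and without vehicle replicate 1 the difference was -0.157 (adjusted p = 0.147) and without Bojungikgi 500 µg/mL replicate 2 it was -0.104 (adjusted p = 0.232). In a fit on only the groups compared, none of the 5 Bojungikgi calls remained (adjusted p = 0.081 to 0.221), and with no filter on low counts those of ABCG1 (adjusted p = 0.116) and LPCAT3 (adjusted p = 0.0506) were lost.

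At 20 µg/mL against vehicle, 2 of the 8 genes were called with each extract, ABCA1 higher and SCARB1 lower, where 18.3%, 18.9% and 12.7% of all genes were called with Bojungikgi, Sayeok and Banhasasim. The shares called higher were 9.11%, 8.87% and 6.43%, and those called lower 9.2%, 10.1% and 6.23%. SCARB1 was at 116, 115 and 111 CPM in the vehicle libraries and at 100 to 110 CPM in all 8 libraries of the 3 extracts at 20 µg/mL. The differences were -0.12 ± 0.041 (adjusted p = 0.0369), -0.13 ± 0.041 (adjusted p = 0.0317) and -0.17 ± 0.046 (adjusted p = 0.0189). Each was lost without vehicle replicate 1 (adjusted p = 0.151, 0.146 and 0.0782). The first 2 were also lost without vehicle replicate 2 (adjusted p = 0.0879 and 0.0787). Other losses came without any 1 library of Bojungikgi 20 µg/mL, without Sayeok 20 µg/mL replicate 1 or 3 and without either library of Banhasasim 20 µg/mL. With no filter on low counts (adjusted p = 0.295, 0.242 and 0.133) or in a fit on only the groups compared (adjusted p = 0.0893, 0.178 and 0.15) none of the 3 SCARB1 differences was called. NR1H2 was not called at 20 µg/mL, with differences of -0.145, -0.194 and -0.101 (adjusted p = 0.143, 0.0503 and 0.415). In 1 of 6 fits with a library left out it was called lower with Bojungikgi (adjusted p = 0.0473), and likewise with Sayeok (adjusted p = 0.016).

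**Figure D4:**
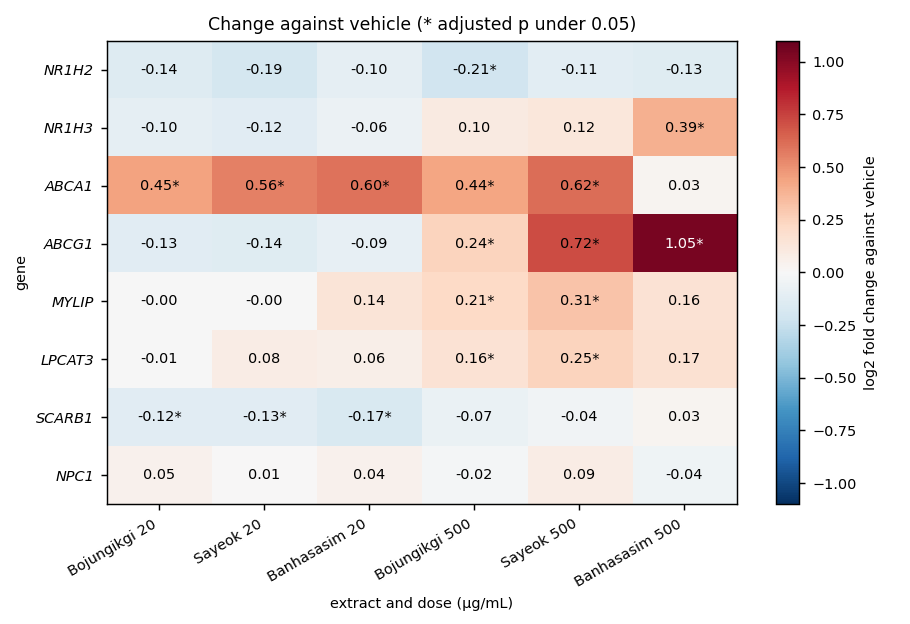
Log2 fold change against vehicle (colour and printed value) of each of the 8 genes (rows) with Bojungikgi, Sayeok and Banhasasim at 20 and 500 µg/mL (columns); an asterisk marks an adjusted p under 0.05. ABCA1 is red in every column but Banhasasim 500 µg/mL (0.03), and ABCG1 is red at 500 µg/mL, up to 1.05.

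Yijung had 1 library per dose, so its values have no replicate check and no test. ABCG1 measured 4.08, 5.94 and 7.82 CPM at 20, 100 and 500 µg/mL, and the last was 1.92 times the first. ABCA1 was at 6.25, 6.44 and 6.72 CPM, in each case above the vehicle libraries. MYLIP was at 15.7, 17.9 and 19.7 CPM and LPCAT3 at 82.9, 86.3 and 95.6 CPM over the same doses, with the values at 100 and 500 µg/mL above the vehicle libraries. NR1H3 was inside the range of the vehicle libraries at each dose, at 45.8, 45.8 and 50.6 CPM.

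Across the 30 libraries, Pearson correlations of log2(CPM + 0.5) describe how the 8 genes went together. They are descriptions without a test, since the points share groups and vehicle and extract libraries differ in other ways. ABCG1 went with NR1H3 (r = 0.779, Spearman's rho = 0.673), MYLIP (0.704 and 0.737) and LPCAT3 (0.689 and 0.639), and MYLIP with LPCAT3 (0.7 and 0.658). ABCA1 and ABCG1 had r = -0.156 and rho = 0.061. The genes with patterns most like each of 3 members were taken from the 10520 named genes with a mean of at least 5 CPM. For ABCG1 they were AKR1C2 (r = 0.924), RHOF (0.924) and ALDH3A1 (0.922), for ABCA1 GDA (0.878), SLC5A3 (0.878) and HERC2P2 (0.868), and for MYLIP ANXA10 (0.797), SERPINB5 (0.789) and UGT1A10 (0.779).

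Other LXR targets were taken from a list of 13. From 20 to 500 µg/mL none of the 8 that passed the filter was called with Bojungikgi or Sayeok by edgeR. The shares of all genes called there were 1.76% and 3.18%. With Banhasasim 1 of the 8 was higher, where 3.82% of all genes were. It was PLTP, the phospholipid transfer protein, at 1.34 and 1.41 CPM and then at 2.05 and 2.64 CPM (0.78 ± 0.192, adjusted p = 0.0105). Its call was lost without Banhasasim 500 µg/mL replicate 2 (0.581, adjusted p = 0.228) and without either 20 µg/mL library (adjusted p = 0.0583 and 0.111). The median log2 change of the 8 targets was -0.012 with Banhasasim, -0.021 with Bojungikgi and 0.17 with Sayeok. With Sayeok all 8 values were positive but none was called, and the median of all genes was 0.004. Some of the 8 were near the floor, with as few as 3 counts in a library. Against vehicle at 20 µg/mL, SCD, the stearoyl-CoA desaturase, was higher by 0.25, 0.32 and 0.27 with Bojungikgi, Sayeok and Banhasasim, all called. Without vehicle replicate 1 the SCD calls with Bojungikgi (0.182, adjusted p = 0.118) and Banhasasim (0.193, adjusted p = 0.143) were lost, and the latter also without either Banhasasim library (adjusted p = 0.107 and 0.158). At 500 µg/mL SCD was called higher with Bojungikgi and Sayeok, the former not without vehicle replicate 1 (adjusted p = 0.112) or Bojungikgi replicate 2 (adjusted p = 0.126). PLTP was called higher with Banhasasim, but not without its replicate 2 (0.393). SREBF1 was called lower with Bojungikgi at 20 and 500 µg/mL, and APOC1 at 500 µg/mL. Without vehicle replicate 1 these were -0.198 (adjusted p = 0.0791), -0.229 (adjusted p = 0.0205) and -0.733 (adjusted p = 0.0179). ABCG5, ABCG8, APOC2, CETP and LPL, also targets, had at most 4 counts in any library and were not tested.

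LXR acts with retinoid X receptors, corepressors and coactivators. Of 7 such genes tested, 1 was called in 1 of the 3 extracts, the coactivator gene NCOA1 with Sayeok (-0.29 ± 0.081, adjusted p = 0.0476), a call lost without any 1 of 5 of its 6 libraries (adjusted p = 0.092 to 0.215). With Sayeok 2.03% of all genes were called lower. Against vehicle, RXRB was called lower with Bojungikgi at 20 and 500 µg/mL and with Sayeok at 500 µg/mL. NCOA2 and NCOA3 were called higher with all 3 extracts at 20 µg/mL, and NCOA3 also with Bojungikgi at 500 µg/mL. In these comparisons 12.7% to 29.7% of all genes were called. Without vehicle replicate 1 only RXRB with Bojungikgi at 500 µg/mL was still called (-0.209, adjusted p = 0.02). Of the 5 genes that make or break down oxysterols, CYP27A1 and SULT2B1 passed the filter, and neither was called with dose by edgeR. LPCAT3's relatives, 6 other lysophospholipid acyltransferase genes, gave 1 call from 20 to 500 µg/mL. It was LPCAT2 with Bojungikgi (0.17 ± 0.045, adjusted p = 0.0418), which was lost without any 1 of its 6 libraries (adjusted p = 0.0545 to 0.221). With Bojungikgi 0.602% of all genes were called higher. Against vehicle, where 18.3% to 29.7% of all genes were called, LPCAT2 was higher with Bojungikgi at 500 µg/mL. MBOAT7 was called lower with Bojungikgi at 20 and 500 µg/mL and with Sayeok at 20 µg/mL. Without vehicle replicate 1 the LPCAT2 call stayed (0.152, adjusted p = 0.0353), and both MBOAT7 calls at 20 µg/mL were lost. Without Bojungikgi 500 µg/mL replicate 2 the MBOAT7 call at that dose was lost (adjusted p = 0.0531).

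Another set responds to cell sterol through SREBP, a transcription factor that is held back when membrane cholesterol is high. Of 7 such genes, 5 were lower with Banhasasim at 500 against 20 µg/mL, 3 with Bojungikgi and 1 with Sayeok, and none was higher. Of all genes tested, 4%, 1.16% and 2.03% were called lower in these comparisons. The median log2 changes of the 7 genes were -0.322, -0.152 and -0.104. HMGCS1, an early enzyme of cholesterol synthesis, was at 265 and 271 CPM with the low dose of Banhasasim and at 181 and 186 CPM with the high dose (-0.55 ± 0.055, adjusted p = 9.43e-08). INSIG1, which retains SREBP in the endoplasmic reticulum, changed by -0.41 ± 0.050 (adjusted p = 2e-06). Without Banhasasim 500 µg/mL replicate 2 these were -0.529 (adjusted p = 2.03e-05) and -0.381 (adjusted p = 0.0003). Against Sayeok, the Banhasasim changes of HMGCS1 and INSIG1 were lower by 0.29 (-0.29 ± 0.070, adjusted p = 0.0397) and by 0.28 (-0.28 ± 0.064, adjusted p = 0.0242). Without Banhasasim 500 µg/mL replicate 2 neither difference was called (adjusted p = 0.242 for HMGCS1 and 0.217 for INSIG1). That of HMGCS1 was lost without any 1 of 8 libraries (adjusted p = 0.0618 to 0.242) and that of INSIG1 without any 1 of 5 (adjusted p = 0.0597 to 0.233).

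Among lipoprotein receptors and apolipoproteins, 4 of 6 genes were tested. With Banhasasim 1 was higher (VLDLR) and 1 lower (CD36) from 20 to 500 µg/mL, with Sayeok 1 was higher (LRP8), and with Bojungikgi none was called by edgeR. The shares of all genes called were 3.82% higher and 4% lower with Banhasasim, 1.14% higher with Sayeok and 1.76% in either direction with Bojungikgi. CD36, a scavenger receptor and fatty acid carrier named after its values were seen, was under 1 CPM in every library, and its call was lost without Banhasasim 500 µg/mL replicate 2 (adjusted p = 0.118) or 20 µg/mL replicate 2 (adjusted p = 0.0646). VLDLR, the very-low-density lipoprotein receptor, which is also a substrate of the MYLIP ligase, was at 4.12 and 4.89 CPM and then at 7.86 and 9.34 CPM with Banhasasim (0.94 ± 0.112, adjusted p = 1.79e-06), a change of 0.804 to 1.06 with any 1 library left out and always called. Its change exceeded that in Bojungikgi by 0.96 ± 0.147 (adjusted p = 0.00024) and that in Sayeok by 0.67 ± 0.147 (adjusted p = 0.0173). The latter was lost without Banhasasim 500 µg/mL replicate 3 (0.541, adjusted p = 0.128), Banhasasim 20 µg/mL replicate 3 (adjusted p = 0.226) or Sayeok 20 µg/mL replicate 1 (adjusted p = 0.0509). Against vehicle at 500 µg/mL, VLDLR was higher in all 3 (0.32, 0.58 and 1.303), all called. The Bojungikgi call of VLDLR was lost without vehicle replicate 1 (adjusted p = 0.0918) or Bojungikgi 500 µg/mL replicate 2 (adjusted p = 0.0626). LRP8, the apolipoprotein E receptor, was higher with dose in Sayeok (0.24 ± 0.050, adjusted p = 0.00515).

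Of 11 genes that move or store cholesterol inside the cell, none was called with dose in Bojungikgi or Sayeok by edgeR. The shares of all genes called there were 1.76% and 3.18%. In Banhasasim 3 of the 11 were lower, where 4% of all genes were. They were GRAMD1B, a carrier of plasma membrane cholesterol to the endoplasmic reticulum (-0.39 ± 0.055, adjusted p = 2.19e-05), STARD4, a soluble sterol carrier (-0.28 ± 0.060, adjusted p = 0.00288), and SOAT1, which esterifies cholesterol for storage (-0.34 ± 0.104, adjusted p = 0.0412). Without Banhasasim 500 µg/mL replicate 2, GRAMD1B was still called (-0.328, adjusted p = 0.00294), but STARD4 (-0.248, adjusted p = 0.0779) and SOAT1 (-0.289, adjusted p = 0.323) were not. Without 20 µg/mL replicate 3 the last 2 were also lost (adjusted p = 0.0861 for STARD4 and 0.458 for SOAT1), and without 500 µg/mL replicate 3 SOAT1 was (adjusted p = 0.0577). NPC2, the lysosomal partner of NPC1, was lower than vehicle at 500 µg/mL with Bojungikgi (-0.62 ± 0.091), Sayeok (-0.36 ± 0.091) and Banhasasim (-0.34 ± 0.102), with adjusted p of 6.41e-05, 0.00853 and 0.0266, while the NPC1 differences there were -0.025, 0.086 and -0.045 and none was called by edgeR. The highest and lowest NPC2 libraries were vehicle replicate 1 (60.11 CPM) and Bojungikgi 500 µg/mL replicate 2 (29.17 CPM), which stood apart. Without the former the NPC2 differences were -0.571 (adjusted p = 0.000903), -0.308 (adjusted p = 0.0631) and -0.281 (adjusted p = 0.109), so that 1 of 3 was called, and without the latter the Bojungikgi difference was -0.489 (adjusted p = 0.000186). The Banhasasim difference was also lost without either Banhasasim 500 µg/mL library (adjusted p = 0.0718 and 0.226).

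**Figure D5:**
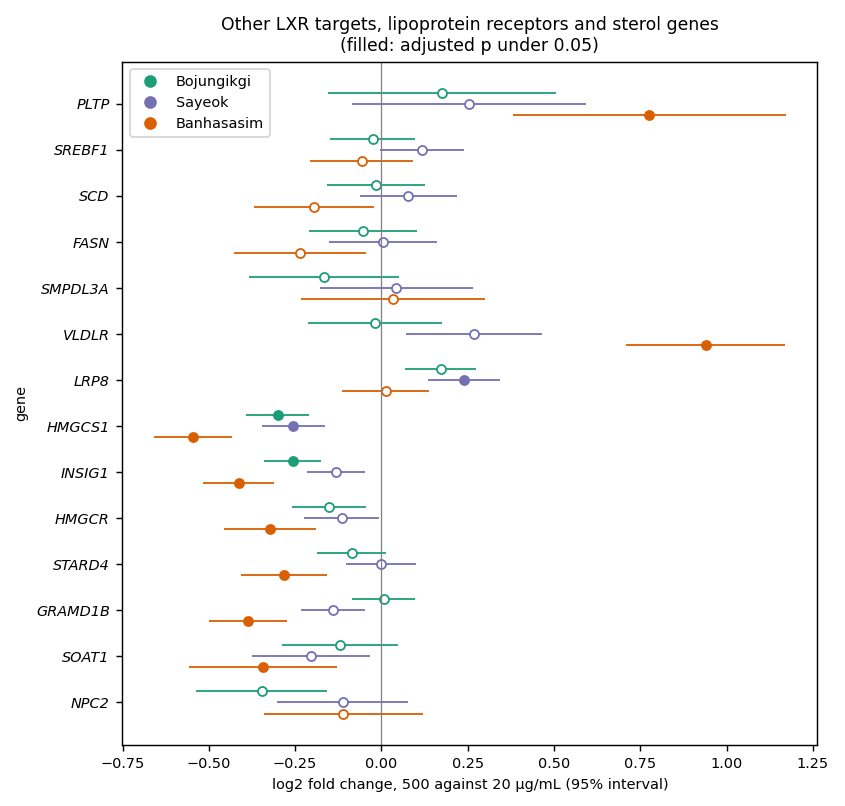
Log2 fold change from 20 to 500 µg/mL (horizontal axis) with its 95% interval (line) for 14 other genes of the pathway (vertical axis) in Bojungikgi, Sayeok and Banhasasim (colours); filled points had an adjusted p under 0.05. VLDLR (0.94) and PLTP (0.78) lie to the right in Banhasasim, and HMGCS1 lies to the left of 0 in all 3 extracts.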

How the data were processed

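The table deposited by the authors holds expected counts per gene, estimated with RSEM 1.3.3 after FastQC 0.11.9, Trim Galore 0.6.5 and STAR 2.7.3a on GRCh38, per the submitters' processing notes. The annotation release is not given in the sources used here. Per the labels, 1 µg of total RNA went into a directional library and was read as paired 100 bp reads. The table has 270 columns: 30 of these samples, and 240 others that were left unused. Of values above 0, 25.48% were not whole, and expected counts were rounded (by at most 0.5).

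Genes were filtered with filterByExpr (minimum count 10) and scaled by TMM. edgeR 4.0.16 (R 4.3.3) fitted 1 mean per group over all 30 libraries, with robust quasi-likelihood dispersions. Each of 15 comparisons was tested two-sided, with Benjamini-Hochberg adjustment over the 18783 genes, and a gene was called at an adjusted p under 0.05. SE is the absolute log2 fold change over the square root of F. CPM are rounded counts per 1e6 of the TMM-scaled library, and lengths are GENCODE 29 exon unions. DESeq2 1.42.0, other scaling, no filter, smaller fits, a replicate block and leaving out libraries were alternatives. For genes of the pathway lists, leaving out libraries was added after seeing the data. The fit was tested on simulated data. Replicate libraries of 1 group differed by more than sampling noise (mean chi-square per gene 4.138 to 44.17). Replicate numbers did not pair the libraries in any comparison.

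The 8 genes and the gene lists were chosen with earlier results of these data known. All 8 are named. A few other genes are not reported here and were left out of the lists. From each list, up to 4 genes per comparison were eligible for naming, those of smallest p with a mean of 1 CPM or more in 1 group, and for ABCA1, ABCG1 and MYLIP the 3 genes of highest Pearson r. Symbols were found for 56558 gene IDs (93.21%). Hot water extracts and wortmannin were not analysed here.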

Additional observations from a re-analysis of the deposited data

Results flagged for a closer look

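The change of ABCA1 from 20 to 500 µg/mL differed between Banhasasim and Bojungikgi by -0.56 on the log2 scale (adjusted p = 0.0339, interaction term in edgeR), with ABCA1 lower in both Banhasasim libraries at 500 µg/mL and without a call in Bojungikgi. The change of ABCA1 also differed between Banhasasim and Sayeok, by -0.63 (adjusted p = 0.0213). The change of ABCG1 differed between Banhasasim and Bojungikgi by 0.76 (adjusted p = 0.00063), with both extracts moving up. Without Banhasasim 500 µg/mL replicate 2, which had the largest share of mitochondrial ribosomal RNA (12.9%), these differences were -0.441 (adjusted p = 0.291), -0.514 (adjusted p = 0.241) and 0.847 (adjusted p = 0.000878), so that neither ABCA1 difference was called. The part of that share in them was not tested.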

How the results depend on the processing

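Of the 29 member results called, 13 were called under every alternative run. Over 319 alternative values of these results, 252 were still called, 67 were not and 0 changed sign. Of 1065 alternative values of the 91 results not called, 4 were called. Counts of the 8 genes called that moved by more than 1.5 times were as follows. With no filter on low counts they were 1 for Bojungikgi 500 against 20 µg/mL, 3 for Bojungikgi 500 µg/mL against vehicle and 1 for each extract at 20 µg/mL against vehicle. With only the groups compared in the fit they were 0 for Bojungikgi 500 against 20 µg/mL, 0 for Bojungikgi 500 µg/mL against vehicle, 1, 1 and 0 for Bojungikgi, Sayeok and Banhasasim at 20 µg/mL against vehicle and 1 for Banhasasim minus Bojungikgi. DESeq2 size factors gave 1 for Bojungikgi 20 µg/mL against vehicle. A smaller move was that of Banhasasim 500 against 20 µg/mL from 4 to 3, with SCARB1 lost, under no filter and with only the groups compared. DESeq2 added LPCAT3 for Banhasasim 500 µg/mL against vehicle (0.17, adjusted p = 0.0456). The cause of these changes was not tested.

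With 1 library left out, the counts ranged from 0 to 2 (Bojungikgi), 2 to 3 (Sayeok) and 3 to 3 (Banhasasim) for 500 against 20 µg/mL, and stayed at 0 for 100 against 20 µg/mL. Against vehicle they were 2 to 5, 4 to 4 and 2 to 2 at 500 µg/mL and 1 to 3, 1 to 3 and 1 to 2 at 20 µg/mL in the same order. They were 1 to 2 for Banhasasim minus Bojungikgi, 0 to 1 for Banhasasim minus Sayeok and 0 to 0 for Sayeok minus Bojungikgi. Groups of 2 libraries then held 1, assumed to vary like the others.

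Counts over all genes moved more. With 1 library left out they ranged from 164 to 354, 386 to 445 and 636 to 1519 for 500 against 20 µg/mL, from 2822 to 6054, 1437 to 3793 and 1470 to 3077 for 500 µg/mL against vehicle, from 844 to 4352, 990 to 4370 and 329 to 3491 for 20 µg/mL against vehicle (Bojungikgi, Sayeok, Banhasasim), from 169 to 535 for Banhasasim minus Bojungikgi, from 116 to 197 for Banhasasim minus Sayeok, from 4 to 8 for Sayeok minus Bojungikgi, and 0 to 0, 0 to 1 and 6 to 10 for 100 against 20 µg/mL (2, 0 and 16 with all libraries). With only the groups compared they were 54 for Bojungikgi 500 against 20 µg/mL, 189, 1264 and 648 for 500 µg/mL against vehicle, 1985, 1537 and 38 for 20 µg/mL against vehicle and 154 for Banhasasim minus Bojungikgi, against 331, 5580, 3117, 2870, 3440, 3555, 2379 and 386 in the fit over all libraries, and 5, 1 and 46 for 100 against 20 µg/mL and 3 for Sayeok minus Bojungikgi. DESeq2 called 13 genes for Sayeok minus Bojungikgi, where edgeR called 5. With no filter they were 606 for Bojungikgi 500 against 20 µg/mL, 76, 112 and 86 for 100 against 20 µg/mL, and 963, 327 and 182 for Banhasasim minus Bojungikgi, Banhasasim minus Sayeok and Sayeok minus Bojungikgi.

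The replicate block added 1 call, NR1H3 in Bojungikgi 500 against 20 µg/mL (0.203, adjusted p = 0.0446), where 3 genes were then called, and changed no other call of the 8 genes. Deviations of same-number libraries correlated between -0.16 and 0.195, so the numbers do not pair the samples. ABCA1 and ABCG1 had the fewest counts of the 8 genes. How depth limits their calls was not tested.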
